A study of Triticum turgidum with 12 samples.

Results

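The response of a pale-green durum wheat mutant to water stress was followed in its flag leaves, the last leaf below the ear, at anthesis. It rests on 6 of the 12 arrays of the series, the 3 labelled genotype M under drought (M, water stress) and the 3 labelled genotype M under control (M, control). The mutant, MD-597, was derived from the variety Borgia with the mutagen sodium azide, was crossed back to Borgia, and most likely carries its defect in a recessive nuclear gene. It descends from a single mutant plant, so effects of other mutations left in that line cannot be told apart from those of the pale-green locus. Both groups grew in pots in a glasshouse. Control pots were kept at field capacity throughout, and stressed pots were watered less from booting on. The paper also states that water was withheld starting at anthesis, so how long the leaves had been under stress at sampling is not certain. Each array held RNA of a pool of flag leaves from several plants, and a pool counts as 1 replicate. The other 6 arrays, of the wild-type (WT) Borgia under the same treatments, enter the intensity filter and the shared estimate of spread, and otherwise serve to show where the mutant response differs.

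A flag leaf under terminal drought loses turgor, accumulates the hormone abscisic acid (ABA), closes its stomata and turns from carbon fixation to the export of stored carbon and nitrogen to the grain. Dehydrins and other late embryogenesis abundant (LEA) proteins, proline and soluble sugars protect its cells as they dry. Jasmonate, another hormone, drives responses to wounding and pathogens, and its pathway and the ABA pathway are known to act on each other. Pale-green mutants of cereals have less chlorophyll per leaf area, usually through changes in pigment synthesis or in the building of the photosystems.

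Expression was measured on the Affymetrix Wheat Genome Array, on which each transcript is read by a probe set of short oligonucleotides. The values are the deposited MAS 5.0 signals, given here as log2 of the signal and therefore in log2 units throughout. The median probe set stood between 5.72 and 6.06 on the 6 mutant arrays, and values below that lie in the range of probe sets whose transcript may not be measured at all. Of 61179 probe sets that are not controls, 24590 exceeded the 60th percentile of their array in all 3 replicates of at least 1 of the 4 groups and were tested. Each was fitted with limma over all 12 arrays. A probe set was said to rise or fall when the stress minus control difference in the mutant had a Benjamini-Hochberg adjusted p under 0.05 and was at least 2-fold. Precision is limited by the 3 arrays of a group, and a p measures only the spread between these pools. In the names of probe sets, _ stands for each dot of the array's own name.

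The tissue label was borne out by most of the leaf transcripts read here. petC, the Rieske iron-sulfur protein of the cytochrome b6f complex, read 15.35, 15.44 and 15.47 on the stress arrays and 15.18, 15.26 and 15.12 on the control arrays, near the top of the scale. The peroxisomal catalase CAT1, which is not taken as a leaf marker here, read 15.05 to 15.54 on all 6. Other leaf transcripts varied. The light-harvesting protein LHB1B2 averaged 14.11 under stress and 12.47 under control on Ta_3249_3_A1_at, but 8.39 and 7.80 on Ta_23025_1_A1_at. The RUBISCO small subunit averaged 11.66 and 10.35. The large subunit lay around the array median under stress and above it under control. Markers of other organs were not tested, because the names of most probe sets are not given in the sources used here. In such pooled leaf RNA, fewer cells of a type and less RNA per cell cannot be told apart.

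Among the mutant arrays, stress array 3 stood apart from the other 2 of its group. Over the kept probe sets its correlation with them was 0.947 and 0.958, where stress arrays 1 and 2 correlated at 0.974 and the control arrays at 0.977 to 0.982. On it 181 kept probe sets were more than 4-fold below both other replicates, against 28 to 59 on the other mutant arrays. The 3' to 5' signal ratio of glucose-6-phosphate dehydrogenase, which climbs when RNA is broken or copied in part, was 15.2 on this array, against 4.46 to 8.29 on the other mutant arrays. The same ratio was not raised there for actin (0.874, against 0.960 to 6.03 on the others) or for glyceraldehyde-3-phosphate dehydrogenase (0.271, against 0.155 to 0.414). Spiked controls also moved with the treatment. For the spiked dap transcript the same ratio was 2.66 to 3.45 on the stress arrays and 7.51 to 8.60 on the control arrays, with no overlap (two-sided exact permutation p = 0.1, the smallest that 3 arrays against 3 can give). The 12 spiked poly-A probe sets averaged 8.71 to 9.55 on the stress arrays and 8.20 to 8.63 on the control arrays (exact permutation p = 0.1). The part of these differences in the results was not tested.

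Water stress changed 2191 probe sets in the mutant flag leaf, 8.91% of those tested. Of these, 841 (3.42%) rose and 1350 (5.49%) fell. The median size of a call was 1.34 for the risers and 1.53 for the fallers. More than 4-fold changes numbered 178 up and 366 down, and more than 8-fold changes 60 up and 108 down. Every stress array lay above every control array for 819 of the risers, and below for 1330 of the fallers, but over all probe sets tested this held for 23.6% and 19.3%, so 42.9% had groups that did not overlap. Many calls involve a transcript near the floor of the array in 1 treatment: 324 of the risers passed the intensity filter in the stress group and not in the control group, and 542 of the fallers the other way round. The median difference over all probe sets that are not controls was 0.15, and over those tested 0.04. Without stress array 3 the counts were 950 up and 1385 down. With the 6 mutant arrays fitted alone they were 768 up and 1234 down, and 1947 of the 2191 calls were kept. When each probe set was tested on its own spread with the methods' t-test, Benjamini-Hochberg adjustment left 38 up and 39 down.

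Within the calls the 3 stress arrays did not respond alike. Stress array 3 had the lowest value of its group for 433 of the 841 risers (51.5%), against 194 for array 1 and 214 for array 2, and the highest for 715 of the 1350 fallers (53%). Its median distance from the control mean was 1.31 for the risers and -1.39 for the fallers. On stress array 2 these medians were 1.40 and -1.55, and on stress array 1 they lay further out still (-1.66 for the fallers). Stress array 3 therefore moved least, in the same direction as the others.

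Gene names were available for the probe sets of the study's own tables, 207 in all, of which 204 were tested. The 3 that were not tested belong to a peroxidase, to the kinase CIPK2 and to a transcript of unknown function. They are grouped below by role. Of the 204, 70 rose and 76 fell in the mutant, where 3.42% and 5.49% of all probe sets did so, but the study picked these genes on the same arrays, so the counts describe them and are not independent evidence. Only 69 of the 841 risers and 72 of the 1350 fallers have a gene name in this way. In the plot of the listed probe sets by role, defense, jasmonate and transcription factor genes lie on the low side, and ethylene, sugar and photosynthesis genes on the high side.

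**Figure D1:**
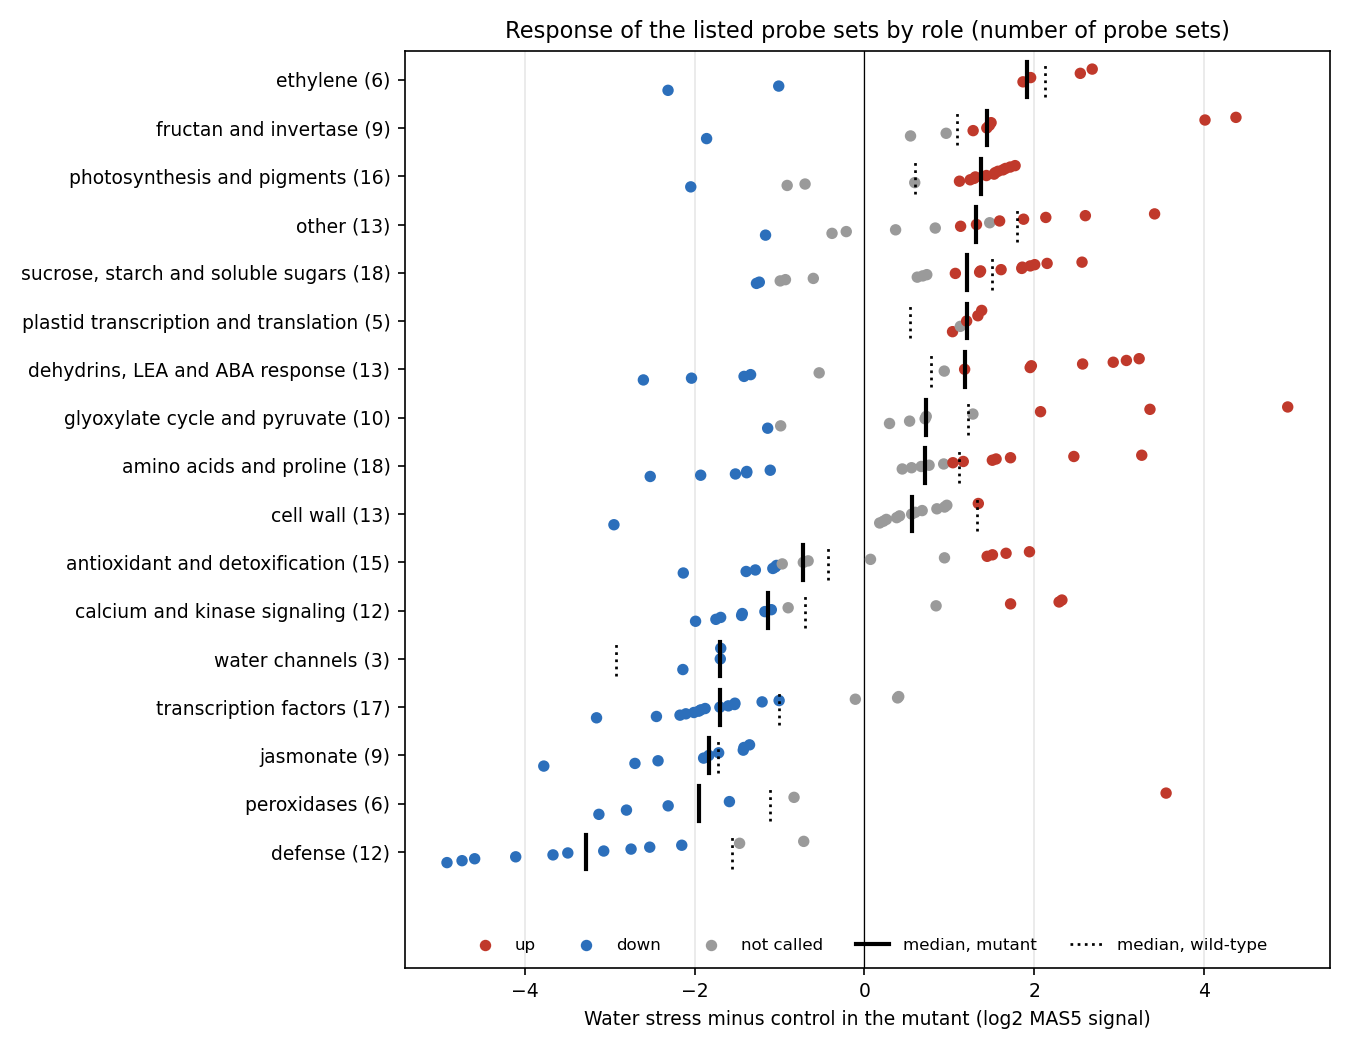
Each point is a listed probe set and its water stress minus control difference in the mutant (log2 MAS5 signal, x axis), grouped by role with the number tested in brackets. Red points rose, blue points fell and grey points were not called, the solid line is the mutant median and the dotted line the wild-type median. All 9 jasmonate probe sets and 10 of 12 defense probe sets fell, and 12 of 16 photosynthesis probe sets rose.

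Dehydrins, proteins that keep drying cells intact, rose. RAB18, a dehydrin that is switched on by ABA, is read by 5 probe sets, and all 5 rose. The strongest signal came from Ta_29352_1_S1_x_at, with 10.68, 10.63 and 8.86 on the stress arrays and 7.03, 6.92 and 6.97 on the control arrays, a difference of 3.09 (standard error 0.37, adjusted p = 0.000104). Stress array 3 lay well under the other 2 but above every control. The same shape was seen for Ta_13255_1_S1_at, which the study names dehydrin WZY1, with 9.39, 9.54 and 6.55 under stress, 5.98, 4.94 and 4.86 under control and a difference of 3.24 (standard error 0.66, adjusted p = 0.00327). Ta_2638_1_S1_at, the RAB protein, read 9.21, 9.29 and 7.93 under stress and 6.57, 5.80 and 5.27 under control, a difference of 2.93 (standard error 0.48, adjusted p = 0.000866). The control values of both lie around the array median or below it, where folds are less firm. The study listed both for a mutant level below the wild-type level on these same control arrays, so part of the rise is built in. Neither was called in the wild-type, with 1.71 for Ta_13255_1_S1_at and 1.35 for Ta_2638_1_S1_at. The qRT-PCR primers that the study designed for these 2 transcripts are shown because they say which members of the dehydrin family were meant.
RAB18 Ta_2638_1_S1_at forward: ggcatcatggacaagatcaagga
RAB18 Ta_2638_1_S1_at reverse: actaggctcacgttgtatggtggaa
RAB18 Ta_13255_1_S1_at forward: atggcacctacggacagcagggta
RAB18 Ta_13255_1_S1_at reverse: atcggtgacatgcgtcccagtac
The primers are 23 to 25 bases long, and those of Ta_13255_1_S1_at are richer in G and C (58.3% and 56.5%) than those of Ta_2638_1_S1_at (47.8% and 48.0%).

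Other genes of the ABA response went both ways. RD22, a desiccation-responsive protein of Arabidopsis, read 14.54, 14.61 and 14.59 under stress and 12.70, 12.95 and 12.25 under control, a rise of 1.95 (standard error 0.25, adjusted p = 0.000167) that was even across the 3 stress arrays. The homeobox protein ATHB-6 rose by 1.18 (standard error 0.34, adjusted p = 0.0195), a call that ended with 32 added to each signal before the log, which damps the changes of low signals (0.92), and also at 0.84 without stress array 1 and 0.98 without control array 2. The ABA receptors fell. RCAR8 read 8.74, 9.17 and 9.61 under stress against 11.70, 11.82 and 11.82 under control, a difference of -2.60 (standard error 0.23, adjusted p = 1.36e-05), and RCAR10 had a difference of -2.04 (standard error 0.19, adjusted p = 2.08e-05). Both probe sets were built on the same transcript cluster and may read each other's RNA. Protein phosphatases 2C, the partners that the receptors hold in check, were down on 2 of 3 probe sets, with -1.34 (standard error 0.22, adjusted p = 0.000748) on TaAffx_16090_1_S1_at. LEA1, a further LEA protein, had a difference of 0.94 (adjusted p = 0.305), with groups that overlap below and around the array median. Of the 13 dehydrin, LEA and ABA probe sets, 7 rose, 4 fell and 2 were not called.

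Ethylene synthesis split between its last 2 steps. The ethylene-forming enzyme EFE (ACC oxidase), which makes the gas from its precursor ACC, rose on all 4 probe sets. Ta_9107_2_S1_a_at read 13.37, 13.53 and 12.83 under stress and 10.57, 11.03 and 10.50 under control, a difference of 2.54 (standard error 0.19, adjusted p = 4.65e-06). TaAffx_100446_1_S1_at read 11.19, 10.99 and 7.99 under stress and 7.14, 7.67 and 7.31 under control, a difference of 2.68 (standard error 0.60, adjusted p = 0.00576). On it stress array 3 lay close to the controls and far below the other 2. The enzyme before it, ACC synthase 2 (ACS2), fell, with 4.45, 6.21 and 7.09 under stress and 8.21, 8.11 and 8.37 under control, a difference of -2.31 (standard error 0.48, adjusted p = 0.00372). ERF4, a repressor of ethylene responses in Arabidopsis, fell by just over the threshold (-1.01, standard error 0.18, adjusted p = 0.00166). It was under 2-fold with 32 added to each signal (-0.95), at -0.98 without stress array 1, -0.87 without stress array 2 and -0.99 without control array 1, and just under it without control array 2.

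Enzymes that free stored carbon rose together with enzymes that build fructans. Fructan 6-exohydrolase, which trims fructose from the fructans that wheat stores in leaves and stems, had the largest rise of the sugar genes. It read 11.85, 11.89 and 11.65 under stress and 7.95, 7.55 and 6.75 under control, a difference of 4.38 (standard error 0.25, adjusted p = 6.92e-07), and a related probe set, Ta_30950_1_A1_x_at, had a difference of 4.01 (standard error 0.25, adjusted p = 1.15e-06). On both, all stress arrays lay far above all controls. A fructan exohydrolase read by 3 probe sets rose on 2 and stood at 0.96 on the other (adjusted p = 0.00211). The fructan-building enzymes rose too: sucrose:sucrose 1-fructosyltransferase read 12.30, 12.05 and 12.11 under stress and 10.83, 10.88 and 10.35 under control, a difference of 1.47 (standard error 0.23, adjusted p = 0.000633). Sucrose:fructan 6-fructosyltransferase had a difference of 1.49 (standard error 0.27, adjusted p = 0.00173). The cell wall invertase CWINV2, which splits sucrose outside the cell, fell, with 8.28, 8.43 and 8.98 under stress against 10.25, 10.37 and 10.65 under control (-1.86, standard error 0.18, adjusted p = 2.5e-05). The vacuolar invertase BFRUCT3 had a difference of 0.54 (adjusted p = 0.283), with overlapping groups.

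Sucrose synthases, which split sucrose inside the cell, all rose. SUS3 read 11.18, 11.10 and 10.66 under stress and 8.77, 8.90 and 8.82 under control on Ta_11152_2_A1_a_at, a difference of 2.15 (standard error 0.14, adjusted p = 1.32e-06), and SUS4 rose by 1.86 (standard error 0.20, adjusted p = 4.88e-05). For starch, the limit dextrinase ATLDA, which cuts the branch points of starch, rose by 1.85 (standard error 0.19, adjusted p = 2.96e-05) and the cytosolic glucanotransferase DPE2, which handles maltose from starch, by 1.07 (standard error 0.12, adjusted p = 6.92e-05). The chloroplast beta-amylase CT-BMY, which makes maltose from starch, had differences of -0.99 (adjusted p = 0.00293) and -0.60 (adjusted p = 0.278), neither of them called. Among the enzymes of galactosyl sugars, the alpha-galactosidase AGAL2 rose, with 12.02, 12.34 and 12.34 under stress and 10.15, 10.31 and 10.22 under control (2.01, standard error 0.15, adjusted p = 3.73e-06). The raffinose synthase SIP1 rose by 1.36 (standard error 0.37, adjusted p = 0.0152), and SIP2, of the same family, had a difference of 0.69 (adjusted p = 0.0066), under 2-fold. Trehalose-6-phosphate phosphatase TPPD, which makes the sugar trehalose, fell by about the same amount on both probe sets (-1.24 and -1.27). Of the 18 probe sets of sucrose, starch and soluble sugars, 10 rose, 2 fell and 6 were not called.

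The glyoxylate cycle, which turns the products of fat breakdown into sugars, appeared from near the floor. Isocitrate lyase (ICL), its first own enzyme, read 8.65, 7.92 and 5.24 under stress and 2.91, 3.33 and 0.60 under control on TaAffx_79139_1_S1_at, a difference of 4.99 (standard error 1.12, adjusted p = 0.00565). This was the largest rise among the named probe sets, but all its control values lie below the array median and with 32 added the rise was 2.40. On a further ICL probe set the rise was 3.36 (standard error 1.01, adjusted p = 0.0249), a call that ended at 2.82 without stress array 1, 3.22 without stress array 2 and 2.16 without control array 3, and on the last, TaAffx_79218_1_S1_at, the groups overlapped. Malate synthase (MLS), the next enzyme, read 8.18, 6.74 and 6.42 under stress and 6.40, 3.91 and 4.80 under control (2.07, standard error 0.60, adjusted p = 0.0218). Its call ended at 1.54 without stress array 1, 1.51 without control array 2 and 1.96 without control array 3. On these 3 called probe sets stress array 3 was the lowest of its group. Phosphoenolpyruvate carboxykinase (PCK1), which starts sugar formation from the cycle's products, had differences of 0.73 and 0.53, under 2-fold.

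Proline synthesis rose at its first step. P5CS2, which starts proline synthesis from glutamate, read 14.15, 13.90 and 12.84 under stress and 11.72, 11.01 and 10.75 under control, a difference of 2.47 (standard error 0.32, adjusted p = 0.00016). Stress array 3 was again the lowest of its group and still above every control. P5CR, the step after it, had a difference of 0.93 (adjusted p = 0.00043), just under 2-fold, with no overlap. Of lysine metabolism, the lysine-degrading enzyme LKR/SDH rose by 1.55 (standard error 0.15, adjusted p = 2.34e-05) and aspartokinase 3 (AK3), which feeds lysine synthesis, by 1.16 (standard error 0.11, adjusted p = 2.08e-05). PYD4, an alanine-glyoxylate transaminase, rose by 1.72 (standard error 0.15, adjusted p = 1.23e-05). For the branched-chain amino acids, BCAT3, which takes off or adds their amino group, read 8.44, 8.14 and 7.97 under stress and 6.44, 6.23 and 2.08 under control, with 1 control far below the other 2, and its rise of 3.27 (standard error 0.84, adjusted p = 0.0116) was 2.06 with 32 added.

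Glutamate was the other side of the amino acid genes. Glutamate decarboxylase (GAD3), which makes the stress metabolite GABA, read 8.04, 8.49 and 7.99 under stress and 9.73, 9.37 and 9.98 under control, a difference of -1.52 (standard error 0.22, adjusted p = 0.000373). Another glutamate decarboxylase, GAD, fell by 2.52 (standard error 0.70, adjusted p = 0.0169), with 6.56, 6.97 and 3.36 under stress and 8.37, 7.77 and 8.32 under control. Stress array 3 was far below the other 2, and the call ended at -2.41 without control array 1 and -2.44 without control array 3. Glutamate dehydrogenase GDH2, which links glutamate to the respiratory cycle, fell by 1.39 (standard error 0.24, adjusted p = 0.00131). The threonine aldolase THA2 fell by 1.93 (standard error 0.36, adjusted p = 0.00193). In all, 7 amino acid probe sets rose, 6 fell and 5 were not called.

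**Figure D2:**
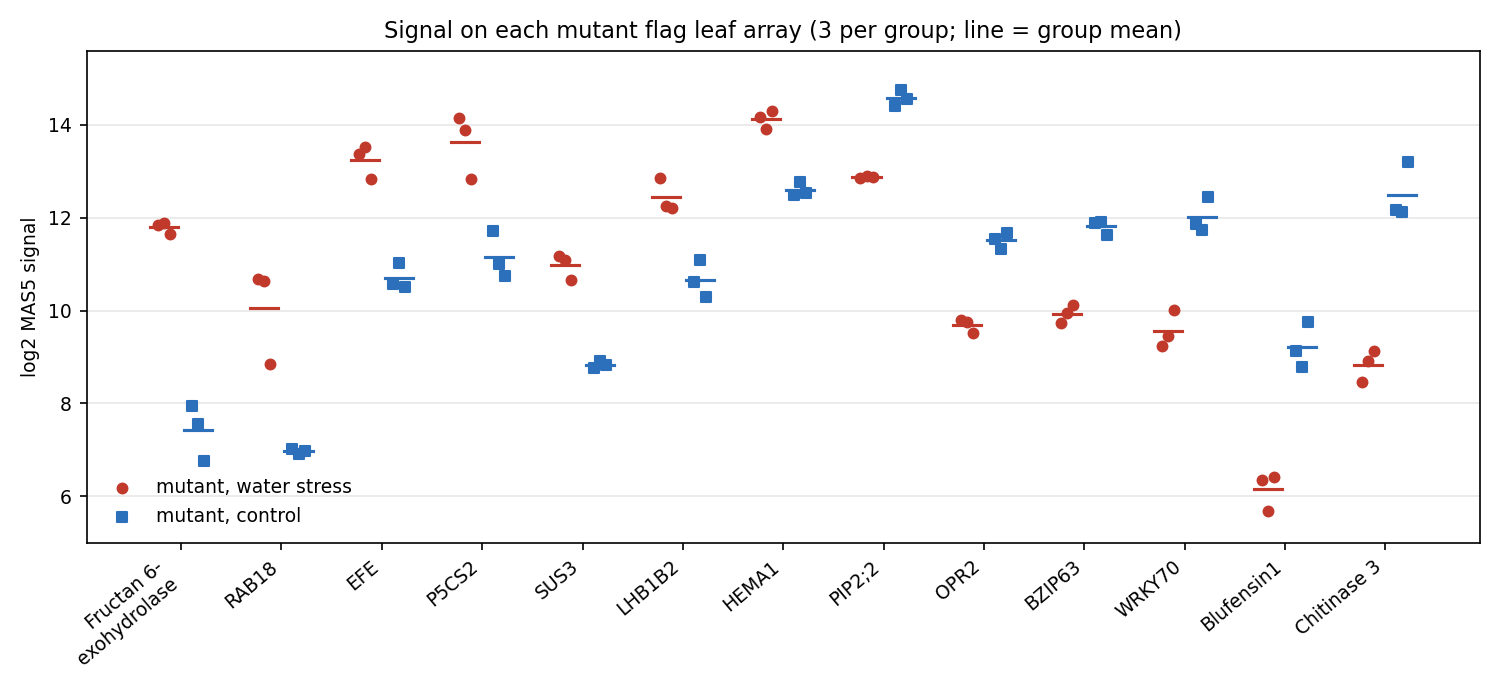
Log2 MAS5 signal (y axis) of 13 probe sets on each mutant array, with water stress (red circles) left of control (blue squares) and a line at each group mean, 3 arrays a group. The groups do not overlap for any of them. Stress array 3, the rightmost circle of each group, is the lowest stress array for every riser shown except HEMA1, most clearly for RAB18 and P5CS2.

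Photosynthesis genes rose in the stressed mutant. LHB1B2, a chlorophyll a/b binding protein of the light-harvesting complex of photosystem II, rose on 4 of 5 probe sets. On Ta_28496_1_A1_x_at it read 12.86, 12.25 and 12.21 under stress and 10.62, 11.08 and 10.29 under control, a difference of 1.77 (standard error 0.29, adjusted p = 0.000871). On the most abundant, Ta_3249_3_A1_at, the rise was 1.63 (standard error 0.26, adjusted p = 0.000677). The fifth, Ta_23025_1_A1_at, read 9.81, 7.88 and 7.48 under stress and 7.91, 7.87 and 7.62 under control, and only stress array 1 lay above the controls. The delta subunit of the chloroplast ATP synthase (ATPD) read 12.23, 12.42 and 12.30 under stress and 10.46, 10.99 and 10.77 under control, a difference of 1.57 (standard error 0.14, adjusted p = 1.6e-05).

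Pigment precursors were part of the same rise. HEMA1, which makes the first committed precursor of chlorophyll, read 14.17, 13.91 and 14.29 under stress and 12.48, 12.76 and 12.54 under control, a difference of 1.53 (standard error 0.22, adjusted p = 0.00032). DXS, which opens the plastid pathway to carotenoids and to the tail of chlorophyll, rose by 1.66 (standard error 0.21, adjusted p = 0.000159). Phytoene synthase (PSY), the first enzyme of the carotenoids alone, rose by 1.12 (standard error 0.14, adjusted p = 0.00012). The early light-inducible protein ELIP1, which binds pigments in stressed thylakoids, had differences of -0.70 and -0.91 with overlapping groups.

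The RUBISCO subunits went opposite ways. The small subunit, encoded in the nucleus, read 12.43, 11.16 and 11.39 under stress and 10.33, 10.64 and 10.09 under control, a rise of 1.31 (standard error 0.36, adjusted p = 0.0172) whose call ended at 0.92 without stress array 1 and 1.17 without control array 3. The large subunit, encoded in the plastid, read 5.62, 4.84 and 7.06 under stress and 8.84, 6.86 and 7.96 under control, a difference of -2.05 (standard error 0.56, adjusted p = 0.0157). Its groups overlap, since stress array 3 lies above control array 2, and the call ended at -1.55 without stress array 2 and -1.57 without control array 1. Plastid transcripts lack the long poly-A tails of nuclear ones, which the usual labelling for these arrays relies on.

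Genes of the plastid's own RNA polymerase rose as well. The study matches the polymerase subunits and the ribosomal protein S2 below to plastid genes of Arabidopsis. The limit of poly-A labelling given for the RUBISCO large subunit therefore holds for them too. The probe set of RNA polymerase beta' subunit-2 or -1 with the higher signal, TaAffx_27156_1_S1_at, read 13.31, 12.92 and 13.25 under stress and 12.23, 11.95 and 11.70 under control, a difference of 1.20 (standard error 0.19, adjusted p = 0.000558), and TaAffx_107547_1_S1_at had one of 1.34 (standard error 0.32, adjusted p = 0.00873). The polymerase's B subunit rose by 1.38 (standard error 0.42, adjusted p = 0.0257), a call that ended at 1.36 without stress array 1, 1.34 without stress array 3, 1.20 without control array 2 and 1.20 without control array 3. PTAC16, a protein of the transcriptionally active plastid chromosome, rose by 1.04 (standard error 0.13, adjusted p = 0.000165), and it was just under 2-fold without stress array 1 and at 0.98 without control array 1. The ribosomal protein S2 of the chloroplast had a difference of 1.13 (standard error 0.43, adjusted p = 0.0658) and was not called. So 12 of 16 photosynthesis and pigment probe sets rose and 1 fell, and 4 of 5 plastid probe sets rose. The list medians were 1.37 and 1.20, beside 0.04 over all probe sets tested.

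Every listed jasmonate probe set fell. The list goes by gene family names, and whether each of its enzymes acts in jasmonate synthesis was not tested. Allene oxide synthase (AOS), which commits oxidised fatty acids to jasmonate, read 7.62, 8.66 and 9.48 under stress and 9.90, 9.79 and 10.35 under control, a difference of -1.43 (standard error 0.40, adjusted p = 0.018). Stress array 3 was the nearest to the controls, and the call ended at -0.95 without stress array 1 and -1.26 without control array 3. OPR2, a 12-oxophytodienoate reductase, read 9.79, 9.76 and 9.51 under stress and 11.55, 11.33 and 11.68 under control, a difference of -1.83 (standard error 0.25, adjusted p = 0.000235) that was even on all arrays. OPR1, of the same enzyme family, fell on all 5 of its probe sets, with differences between -2.70 on TaAffx_128684_1_S1_at and -1.35 on Ta_1207_1_S1_at. Its calls ended at -1.13 without stress array 3, -1.18 without control array 1 and -1.27 without control array 3 for Ta_1207_1_S1_at, and for Ta_1207_1_S1_s_at at -1.30 without control array 1, and without stress array 1 (adjusted p = 0.0519). Most OPR1 probe sets share a cluster and may read the same RNA. The lipoxygenase LOX1 fell by 1.90 (standard error 0.38, adjusted p = 0.00281). JAZ11, of the family of repressors that jasmonate removes, read 2.86, 5.59 and 2.68 under stress and 7.30, 7.32 and 7.84 under control, with all stress values below the array median, so its fall of -3.78 (standard error 0.81, adjusted p = 0.0044) was -2.10 with 32 added.

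Calcium sensors and the kinases they bind changed in both directions. The sensor CBL1 fell on both probe sets, and Ta_5272_2_S1_a_at read 10.25, 9.85 and 9.25 under stress and 11.32, 11.54 and 11.57 under control (-1.69, standard error 0.24, adjusted p = 0.000297). CIPK23, a kinase that binds CBL1 in Arabidopsis, read 7.65, 7.28 and 7.89 under stress and 9.76, 9.25 and 9.79 under control, a difference of -1.99 (standard error 0.22, adjusted p = 6.06e-05), but its other probe set stood at -0.90. CIPK3, a kinase of the same family, rose on both probe sets, with 10.65, 10.44 and 9.34 under stress and 7.84, 8.08 and 7.63 under control on Ta_28002_2_A1_a_at (2.29, standard error 0.28, adjusted p = 0.000123). CIPK10 rose by 1.72 (standard error 0.37, adjusted p = 0.0041), and CIPK6 had a difference of 0.84 (adjusted p = 0.00246). MAP kinase 3, a relay of pathogen and stress signals, fell by 1.45 (standard error 0.22, adjusted p = 0.000444), and MKK6, a kinase above MAP kinases, had a difference of -1.17 (standard error 0.35, adjusted p = 0.0246), a call that ended at -0.75 without stress array 3, -1.19 without control array 2 and -1.07 without control array 3.

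Of the 17 probe sets grouped as transcription factors, 14 fell and none rose. The homeobox factor ATHB-6, which rose, and ERF4, which fell, were counted above with the hormone they belong to. WRKY factors, a plant family that governs much of defense and senescence, made up 8 of the falls. WRKY70 read 9.24, 9.45 and 10.01 under stress and 11.87, 11.75 and 12.45 under control, a difference of -2.45 (standard error 0.23, adjusted p = 2.16e-05). WRKY40 fell on all 3 probe sets, with 7.32, 6.91 and 7.21 under stress and 9.29, 9.23 and 9.45 under control on Ta_4678_2_S1_at (-2.17, standard error 0.20, adjusted p = 1.98e-05). WRKY33 had the largest fall of the factors (-3.16, standard error 0.65, adjusted p = 0.00342), but its stress arrays were far apart, at 5.07, 7.24 and 8.66, beside 10.11, 10.16 and 10.18 under control.

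BZIP63, a leucine zipper factor that acts in low-energy responses in Arabidopsis, fell on all 3 probe sets. TaAffx_18447_1_S1_at read 9.74, 9.95 and 10.12 under stress and 11.90, 11.90 and 11.64 under control, a difference of -1.88 (standard error 0.13, adjusted p = 1.95e-06). The arrays within each group lay close together and the groups far apart. The zinc finger protein STZ, a repressor induced by salt and cold in Arabidopsis, fell by 1.53 (standard error 0.20, adjusted p = 0.000154). The AP2-type factors RAP2.12 and RAP2.7 were not called, with -0.11 and 0.40. RAP2.12 helps to sense low oxygen in Arabidopsis.

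Defense genes had the largest falls of the genes with a known role. Most of them were listed by the study for a mutant level above the wild-type level on these same control arrays. Part of their fall is therefore built into the choice. Chitinase 3, which cuts the chitin of fungal walls, read 8.45, 8.91 and 9.13 under stress and 12.16, 12.13 and 13.21 under control, a difference of -3.67 (standard error 0.33, adjusted p = 1.36e-05). All stress arrays were far below all controls. Blufensin1, a small cysteine-rich peptide, read 6.35, 5.68 and 6.41 under stress and 9.12, 8.78 and 9.76 under control (-3.07, standard error 0.29, adjusted p = 1.88e-05). The primers that the study designed for these 2 transcripts are shown because both fell on all arrays and both families have close relatives in wheat.
Chitinase 3 TaAffx_128418_43_S1_at forward: gctactgtgacctcctcggtgtca
Chitinase 3 TaAffx_128418_43_S1_at reverse: ggtctatcgccacgccattgttac
Blufensin1 TaAffx_26815_1_S1_at forward: ccgaggatggcaaagaacaactc
Blufensin1 TaAffx_26815_1_S1_at reverse: ggaaatggttcatctcgtgcttatg

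Most of the other defense probe sets also fell. The germin-like protein GLP2b, a cell wall protein, read 6.97, 6.67 and 7.34 under stress and 10.43, 9.88 and 11.16 under control (-3.50, standard error 0.38, adjusted p = 5.3e-05). A pathogenesis-related protein precursor had the lowest difference of all listed probe sets, -4.92 (standard error 0.98, adjusted p = 0.0028), with 5.74, 2.50 and 6.57 under stress and 9.51, 9.68 and 10.37 under control. The beta-1,3-glucanase Ta_28_1_S1_at, which cuts the glucans of fungal walls, read 4.16, 6.92 and 7.45 under stress and 10.22, 9.57 and 11.07 under control (-4.11, standard error 0.78, adjusted p = 0.00207). On both the stress arrays spread widely, below every control. ACT-1, which makes antifungal phenolic amides in barley, read 5.59, 6.56 and 5.99 under stress and 8.94, 8.65 and 8.80 under control (-2.75, standard error 0.35, adjusted p = 0.000156). Oxalate oxidase, with all arrays near the array median, stood at -0.72 (adjusted p = 0.38). Of the 12 defense probe sets 10 fell and none rose, with a median of -3.28. Several of the stress values lie at or below the array median, where folds are not firm: the difference of the beta-glucanase TaAffx_119315_2_S1_x_at was -4.74 as deposited and -3.16 with 32 added. For naringenin dioxygenase, of flavonoid synthesis, it was -4.59 as deposited and -2.60 with 32 added.

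Enzymes against reactive oxygen did not move as a group. The thylakoid ascorbate peroxidase TAPX, which removes hydrogen peroxide in the chloroplast, rose, with 13.38, 13.20 and 12.53 under stress and 11.56, 11.70 and 11.51 under control (1.45, standard error 0.20, adjusted p = 0.000253). The cytosolic APX1 read 13.12, 13.07 and 11.94 under stress and 13.63, 13.93 and 13.81 under control, a difference of -1.08 (standard error 0.23, adjusted p = 0.00441). Stress array 3 was the lowest, and at -0.69 without stress array 3 it was not called. RBOHD, an oxidase that makes superoxide as a signal, rose by 1.51 (standard error 0.49, adjusted p = 0.037), and its call ended at 1.39 without stress array 1, 1.20 without stress array 2, 1.57 without control array 2 and 1.24 without control array 3. Among the glutathione transferases, which detoxify reactive compounds, ATGSTF13 fell on Ta_23704_1_S1_s_at (-1.29, standard error 0.17, adjusted p = 0.0002). ATGSTU19 fell by 1.05 (standard error 0.10, adjusted p = 1.67e-05), at the edge of the fold threshold, and stood at -0.99 without control array 2. The ascorbate peroxidase APX4 had the largest rise of the list (1.94, standard error 0.49, adjusted p = 0.0103). Its control values lie around the array median, and with 32 added the rise was 1.52. In all 4 of these 15 probe sets rose, RBOHD included, and 6 fell.

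Secreted peroxidases, which use hydrogen peroxide to stiffen walls, fell on 4 of 6 probe sets. POX10 read 6.51, 5.31 and 6.58 under stress and 8.89, 8.97 and 9.92 under control (-3.13, standard error 0.38, adjusted p = 0.000115). A putative peroxidase, TaAffx_613_2_A1_x_at, went the other way, with 7.09, 7.17 and 6.40 under stress and 4.75, 2.49 and 2.75 under control. It rose by 3.55 (standard error 0.63, adjusted p = 0.00137), or by 1.77 with 32 added.

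Water channels fell, and synthesis genes of the cell wall stayed mostly under 2-fold. The aquaporin PIP2;2, which lets water through the plasma membrane, read 12.85, 12.91 and 12.88 under stress and 14.41, 14.76 and 14.55 under control, a difference of -1.69 (standard error 0.17, adjusted p = 2.63e-05). The stress arrays were nearly equal. PIP2;5 fell by 1.70 (standard error 0.27, adjusted p = 0.000641). Of the wall genes, only the cellulose synthase-like ATCSLB05 rose (1.34, standard error 0.29, adjusted p = 0.00495). The cellulose synthase CESA1 read 10.56, 10.77 and 10.78 under stress and 9.94, 9.71 and 9.91 under control, a difference of 0.85 (adjusted p = 0.000161), above all controls but under 2-fold. An adhesive/proline-rich protein, a structural protein of the wall, fell by 2.95 (standard error 0.37, adjusted p = 0.000145). The study listed it for a mutant level above the wild-type level on these same control arrays, so part of its fall is built in.

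A few further named genes rose strongly. The study listed PAP-14, the endonuclease and ERF1 for a mutant level below the wild-type level on these same control arrays. Part of their rise is therefore built into the choice. The papain-like cysteine proteinase PAP-14, of the kind that breaks down protein in ageing leaves, read 10.70, 10.12 and 9.92 under stress and 7.80, 6.17 and 6.51 under control (3.42, standard error 0.45, adjusted p = 0.000189). An endonuclease, which breaks down nucleic acids, rose by 2.14 (standard error 0.52, adjusted p = 0.00877), and the peptide chain release factor ERF1, which ends translation, by 2.60 (standard error 0.24, adjusted p = 1.55e-05). TdS40, of a family that marks leaf senescence in barley, read 6.86, 7.47 and 6.93 under stress and 7.59, 7.18 and 7.64 under control, and the groups overlap.

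By log2 difference, the largest changes in each direction belong to probe sets without a name in the sources used here, also with 32 added to each signal. Ta_1337_2_S1_x_at read 13.31, 13.05 and 12.60 under stress and 4.84, 4.66 and 5.07 under control, a rise of 8.13 (standard error 0.53, adjusted p = 1.63e-06), or 7.06 with 32 added. Its neighbour Ta_1337_1_S1_x_at, with 15.04, 14.98 and 14.73 under stress and 8.93, 8.95 and 8.38 under control (6.16, standard error 0.30, adjusted p = 1.78e-07), was measured well in both groups. These 2 probe sets may read the same or related transcripts, as their names share a cluster. Among the fallers Ta_9220_1_S1_a_at read 3.57, 4.91 and 5.56 under stress and 10.74, 10.67 and 11.45 under control (-6.27, standard error 0.60, adjusted p = 2.16e-05), a difference that was -5.07 with 32 added.

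The same treatment in the wild-type changed 1787 probe sets (7.27%), of which 756 (3.07%) rose and 1031 (4.19%) fell. Of the 2191 mutant calls, 1110 (50.7%) were also called in the wild-type in the same direction, 62.1% of the wild-type calls. Of the 1077 called in the mutant alone, 991 had a wild-type difference of the same sign and 114 one of at least 2-fold. A call in 1 genotype alone is not a difference between them. The difference of the responses, the interaction of genotype and water stress, was tested in the same fit, and 39 probe sets passed (0.159%). The mutant minus wild-type response was above 0 for 9 of them (0.0366%) and below 0 for 30 (0.122%). Of the 1077 called in the mutant alone, 14 passed it. The count of 39 was not stable: it was 148 without stress array 3, 43 without stress array 1, 30 without control array 2 and 0 without stress array 2 or control array 1 or 3.

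**Figure D3:**
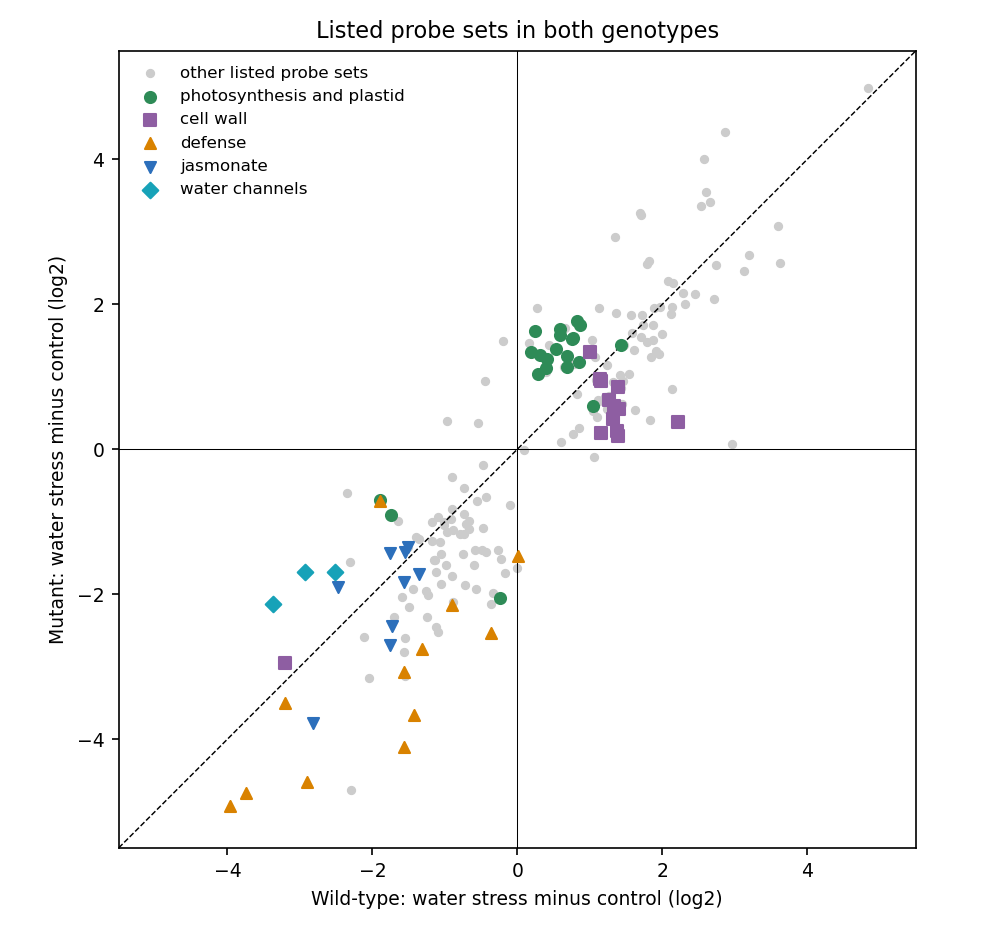
Each point is a listed probe set placed by its water stress minus control difference in the mutant (y axis, log2) and the wild-type (x axis, log2), from separate arrays, and the dashed line marks equal differences. Photosynthesis and plastid probe sets lie mostly above the line, cell wall and defense probe sets mostly below it and the 3 water channels above it.

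Of the listed probe sets, 3 passed the interaction. BZIP63 on TaAffx_18447_1_S1_at had a lower value for the mutant response (-1.88) than for the wild-type one (-0.73), an interaction of -1.15 (standard error 0.18, adjusted p = 0.0342). Its wild-type arrays read 10.91, 10.78 and 11.08 under stress and 11.53, 11.62 and 11.80 under control. The other BZIP63 probe sets had the same sign and did not pass (adjusted p = 0.0519 and 0.116). RAP2.12 stood at -0.11 in the mutant and rose by 1.06 in the wild-type, where it read 13.19, 13.09 and 13.34 under stress and 12.16, 12.16 and 12.13 under control, an interaction of -1.16 (standard error 0.14, adjusted p = 0.0335). Ta_22572_1_S1_at, of unknown function, read 11.16, 11.31 and 11.14 in the mutant under stress and 12.57, 12.79 and 13.19 in the mutant under control. Its wild-type arrays read 11.95, 11.12 and 11.23 under stress and 11.47, 11.69 and 11.17 under control. The interaction was -1.64 (standard error 0.30, adjusted p = 0.0459), and its call ended with no filter (adjusted p = 0.0567). The study listed this probe set for a mutant level above the wild-type level on these same control arrays, so the fall is partly built in. All 3 calls ended without stress array 2 (adjusted p = 0.0590 to 0.0861), without control array 1 (at least 0.0947) and without control array 3 (0.0898 to 0.112). Without control array 2 the calls of BZIP63 (adjusted p = 0.0593) and Ta_22572_1_S1_at (adjusted p = 0.0769) ended, and without stress array 1 that of Ta_22572_1_S1_at (adjusted p = 0.0705). All 3 ended with no trend (adjusted p = 0.0816 to 0.116) and with the replicate block (adjusted p = 0.0636 to 0.109), and every alternative kept their sign.

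Several lists had different medians in the genotypes, though no probe set of theirs passed. The photosynthesis list had a median of 1.37 in the mutant, where 12 of 16 rose, and of 0.59 in the wild-type, where 1 rose and 1 fell. Its median was 1.53, 1.25 and 1.40 on the mutant stress arrays and 0.08, 0.95 and 0.68 on the wild-type ones, each relative to the control mean of its genotype, so that all mutant arrays lay above all wild-type ones. Most photosynthesis and plastid probe sets were listed by the study for a response in the mutant alone on these same arrays. Such a separation is therefore built into the choice. ATPD, the nearest of the list to passing, had an interaction of 0.98 (standard error 0.20, adjusted p = 0.0617). The 5 plastid probe sets had a median of 1.20 in the mutant, where 4 rose, and of 0.54 in the wild-type, where none was called. The defense list stood at -3.22, -3.45 and -2.82 on the mutant stress arrays and -1.40, -1.51 and -1.70 on the wild-type ones. Most of its probe sets were chosen for a high mutant level under control, so part of this gap is built in. The mutant response of Chitinase 3 was -3.67 and the wild-type one -1.42, an interaction of -2.25 (standard error 0.46, adjusted p = 0.0617).

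For the cell wall and water channel lists the wild-type median was further from 0. The cell wall list had a median of 0.56 in the mutant, with 1 of 13 up, and of 1.32 in the wild-type, with 12 of 13 up. IRX9, a xylan synthesis gene, read 9.69, 9.72 and 8.28 in the mutant under stress and 8.96, 8.91 and 8.69 in the mutant under control. Its wild-type values were 10.68, 10.89 and 10.86 under stress and 8.64, 8.33 and 8.80 under control, an interaction of -1.84 (standard error 0.42, adjusted p = 0.09). The 3 water channel probe sets fell in both genotypes, with a median of -1.70 for the mutant and of -2.93 for the wild-type, and PIP2;2 on TaAffx_8804_1_S1_s_at had an interaction of 1.24 (standard error 0.24, adjusted p = 0.0519). Jasmonate genes fell on 9 of 9 probe sets in each genotype, with a median of -1.83 for the mutant and of -1.73 for the wild-type. Of the fructan genes, sucrose:fructan 6-fructosyltransferase rose by 1.49 in the mutant and stood at -0.20 in the wild-type, an interaction of 1.69 (standard error 0.39, adjusted p = 0.09). Fructan 6-exohydrolase on Ta_9641_1_A1_a_at rose by 4.38 in the mutant and had a response of 2.86 in the wild-type, an interaction of 1.51 (standard error 0.35, adjusted p = 0.096). Most of the cell wall list was chosen by the study for a response in the wild-type alone, so its gap is built in as well. As the lists come from the study's own selection on these arrays, the medians are a description and no test.

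**Figure D4:**
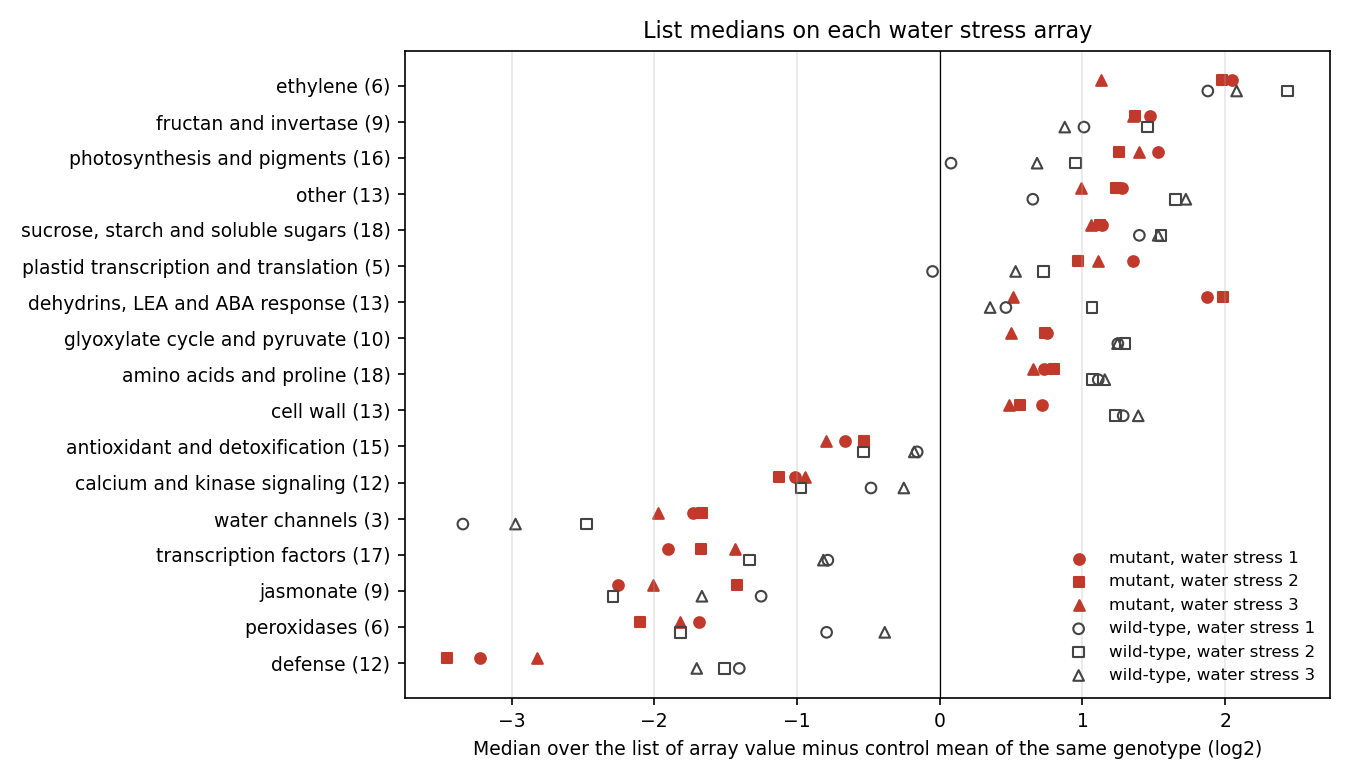
Median over each listed role (number of probe sets in brackets) of array value minus control mean of the same genotype (log2, x axis), for the 3 mutant stress arrays (filled red) and the 3 wild-type stress arrays (open). The mutant arrays lie above the wild-type arrays for photosynthesis and below them for cell wall and defense. Stress array 3 of the mutant lies low for the list of dehydrins, LEA and ABA response (0.52 beside 1.87 and 1.98).

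The list of dehydrins, LEA and ABA response showed how far 1 array can carry a list. Its median on stress arrays 1 and 2 was 1.87 and 1.98. On stress array 3 it was 0.52, near the wild-type arrays at 0.46, 1.07 and 0.35. These medians are of the whole list, which also holds the ABA receptors and phosphatases that fell, and not of the dehydrins alone. The photosynthesis list did not share this gap, with stress array 3 at 1.40 between the other 2.

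A pair of the study's lists holds genes picked for a mutant level above or below the wild-type level in the control treatment. Most of the defense genes described above are among them, as are POX10, the adhesive/proline-rich protein, ATHB-6, PAP-14 and ERF1. Of the 22 tested from the study's list of induced genes, 17 fell under water stress in the mutant and 1 rose, with a median of -2.67. The wild-type median was -1.37 with 9 down. Of the 15 from the study's list of repressed genes, 7 rose and 1 fell, with a median of 0.94, beside -0.10 in the wild-type. Both lists were chosen on the same mutant control arrays from which the stress response is taken, so a move in the opposite direction is built into the choice and is given as a description alone.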

How the data were processed

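Flag leaf RNA was hybridised to Affymetrix Wheat Genome Arrays, 1 pool of leaves an array. The deposited values are linear MAS 5.0 signal intensities, which the authors scaled to a common trimmed mean on every array, with no detection calls. For their own analysis the methods describe RMA values and detection calls, neither of which was used here. Log2 intensities entered limma 3.58.1 under R 4.3.3 (1 mean for each of the 4 groups over all 12 arrays, empirical Bayes with a trend), and p-values were adjusted by Benjamini-Hochberg over all 24590 probe sets tested. The fit was tested on simulated data. The 111 control probe sets were left out. Genes are named from the study's tables, whose annotation was followed, and petC and CAT1 from the symbols of the array platform. Named genes are the probe sets of those tables and the 3 largest changes of each direction, both members and lists having been chosen with earlier results of these data known. Deviations of arrays with the same replicate number were weakly correlated, between -0.02 and 0.09 in the mutant and between -0.19 and 0.09 over all 12 arrays. No block was therefore used in the main fit. The paper describes a split-plot glasshouse design with 3 replicates, but the labels do not tie the replicate numbers to its blocks. The alternatives cover normalization, filter, offset, trend, test, block, array weights and each array left out.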

Additional observations from a re-analysis of the deposited data

Results flagged for a closer look

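The mutant and wild-type responses to water stress differed by the test of the difference itself for 3 of the listed probe sets. The mutant minus wild-type difference of responses was -1.16 for RAP2.12 on Ta_10130_1_S1_at (limma, adjusted p = 0.0335), -1.15 for BZIP63 on TaAffx_18447_1_S1_at (adjusted p = 0.0342) and -1.64 for Ta_22572_1_S1_at, of unknown function (adjusted p = 0.0459). None of the 3 passed with no trend (adjusted p = 0.0816 to 0.116), with the replicate block (adjusted p = 0.0636 to 0.109), or without stress array 2, control array 1 or control array 3. The study had listed all 3 for a difference between the genotypes on these same arrays. Causes were not tested.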

How the results depend on the processing

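Of the 2191 mutant calls none changed sign under any of the 18 alternatives. The counts of 841 up and 1350 down were within 1.5 times of the main value except without a fold threshold (3678 and 3335) and with the methods' t-test after Benjamini-Hochberg adjustment (38 and 39). That test uses the spread of 6 values a probe set alone, and its unadjusted form gave 695 up and 1009 down. Leaving out 1 mutant array gave 744 to 950 up and 1138 to 1385 down. The interaction count of 39 became 19 with no filter, 68 without a fold threshold, 364 with array weights and 0 with no trend, and 0 to 148 with 1 mutant array left out. With the replicate block 1331 probe sets fell, the count of risers also stayed within 1.5 times of the main value, and 0 passed the interaction. The labels do not tie the replicate numbers to blocks. Of 148 mutant calls (69 up and 72 down with a gene name, Ta_22572_1_S1_at and the 3 largest without a name in each direction), 24 ended when some array was left out. Neither of the 2 named values that turned sign had been called: RAP2.12 was 0.019 with array weights, and LHB1B2 on Ta_23025_1_A1_at was -0.12 without stress array 1 and 1.05 without stress array 3. Causes were not tested. Limits are the 3 pools a group, the lack of detection calls, so that low signals carry folds that an added 32 shrinks, and the gene names, which cover few of the calls.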
